A study of Mus musculus with 6 samples.

Results

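The clock output and stabilizing loop factors are transcription factors that act beside the core circadian feedback loop. In all, 9 of their genes were described, out of 23361 genes measured. They were Nr1d1, Nr1d2 and Rora, which encode nuclear receptors, Dbp, Tef, Hlf and Nfil3, which encode basic leucine zipper proteins, and Bhlhe40 and Bhlhe41, which encode basic helix-loop-helix repressors. The genes were chosen by name for these roles with their expression values at both ages in the same libraries already known, so the values are given as a description and no test was made of them.

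Taste cells of the circumvallate and foliate (CV/Fol) papillae, which carry taste buds on the rear and the flanks of the tongue, were freed with enzymes and their polyA RNA was sequenced, to compare gene expression between ages at which taste cell renewal may differ. The mice were of the C57BL/6 strain and were 2 months or 6 months old. There were 3 libraries for each age, and each library was made from the pooled cells of 4 mice at 2 months and of 3 mice at 6 months. The labels give 2 and 6 months, while the series text once gives the ages as 3 and 6 months.

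The deposited table used here gives a single FPKM value per gene and age, combined over the libraries of that age. FPKM is the number of sequenced fragments of a gene, scaled by the length of its transcript and by the mapped reads of the library. Single libraries had no values in the data used, so no spread between libraries can be set beside any value below, and the depth of the libraries is unknown from it. The sex of the mice and the hour of collection were not given in the sources used here. Changes are differences of log2(FPKM + 1), 6 minus 2 months, a scale that understates the change of low genes, and ratios are plain ratios of FPKM.

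In the circadian clock of mammals, CLOCK or NPAS2 pairs with ARNTL (BMAL1) and activates genes with E-box elements, among them the Period and Cryptochrome genes, whose products shut the activators off. REV-ERB proteins repress and ROR proteins activate genes with ROR elements such as Arntl, which stabilizes the rhythm, while DBP, TEF and HLF activate and NFIL3 represses genes with D-box elements, which carries the rhythm to the output of the clock. BHLHE40 and BHLHE41 bind E-boxes and oppose the activators.

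All 9 genes were expressed in the CV/Fol taste cell samples at both ages, with values from 1.86 to 69.2 FPKM. All 9 passed the filter of a mean of 1 FPKM or more, as did 12652 genes of the whole table. At 6 months 7 of the 9 genes had a higher value and 2 a lower value, while of the 12652 genes 5854 had a higher and 6798 a lower value. On the log2(FPKM + 1) scale, 1.2-fold is a difference of 0.26, and this size was reached by 5 genes in the direction of higher values at 6 months, namely Dbp, Tef, Bhlhe40, Bhlhe41 and Rora, and by 0 genes in the other direction. Among the 12652 genes, 549 (4.34%) were higher by this measure and 821 (6.49%) were lower. At 1.5-fold, a difference of 0.58, the members counted 1 higher gene, Bhlhe41, and 0 lower genes, beside 133 (1.05%) higher and 217 (1.72%) lower genes of the 12652. With a pseudocount of 0.1 or with either scaling of the 6 month values, the members past 1.5-fold were 2, since Dbp was then counted as well. The share of all genes past this size in these settings is not given here. The choice of the members used the same contrast, so nothing is read from these counts or shares. The median change of the 9 genes was 0.28, and that of all 12652 genes was -0.01, with a 5th percentile of -0.30 and a 95th percentile of 0.24.

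**Figure D1:**
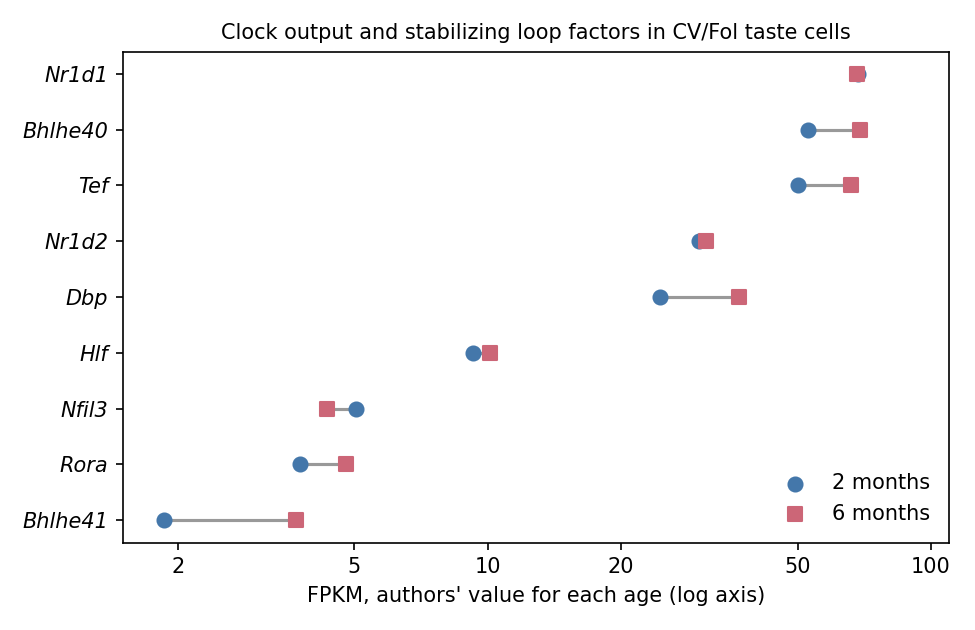
FPKM of the 9 genes at 2 months (circles) and 6 months (squares) on a log axis, with the deposited value of each age and genes ordered by their level at 2 months. The levels run from 1.86 FPKM for Bhlhe41 at 2 months to 69.2 FPKM for Bhlhe40 at 6 months, and the markers of Nr1d1 almost coincide.

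The order of the levels, which FPKM gives per transcript length, was led at 2 months by Nr1d1, Bhlhe40 and Tef, followed by Nr1d2, Dbp, Hlf, Nfil3, Rora and Bhlhe41. At 6 months Bhlhe40 stood above Nr1d1, Dbp above Nr1d2 and Rora above Nfil3, and the other places were the same. Without values of single libraries it cannot be said which neighbours in this order differ beyond their spread. Nr1d1 at 2 months lay above 89.7% of the 12652 expressed genes, and Bhlhe41 above 8.81% of them. Summed over the 9 genes, the level was 246 FPKM at 2 months against 294 FPKM at 6 months.

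The receptors of the stabilizing loop were described first. Nr1d1, which encodes the repressor REV-ERB alpha, had 68.3 FPKM at 2 months against 68.0 FPKM at 6 months. Its change was -0.01, and it turned to 0.01 when the 6 month values were scaled to the same upper quartile or the same median as the 2 month values, so no direction can be given for it. Nr1d2, which encodes the related repressor REV-ERB beta, had 30.02 FPKM at 2 months against 31.0 FPKM at 6 months, a change of 0.05. Both repressor genes thus had close to the same value at either age. Their sum was 98.4 FPKM at 2 months against 99.0 FPKM at 6 months, and Nr1d1 stood at 2.28 times the level of Nr1d2 at 2 months and at 2.19 times at 6 months.

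Rora, which encodes an activator that binds the same elements as the REV-ERB proteins, was expressed at a much lower level. It had 3.77 FPKM at 2 months against 4.80 FPKM at 6 months, a ratio of 1.27 and a change of 0.28. Among the 12652 genes, 487 had a higher change. The change of Rora still lay inside the range from the 5th to the 95th percentile of the 3341 genes whose mean was 1 to 5 FPKM, which ran from -0.31 to 0.29.

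The proline and acidic amino acid-rich (PAR) basic leucine zipper factors, which activate D-box genes, had higher values at 6 months in all 3 cases and under both other scalings. Dbp, the classical output gene of the clock and one of the most strongly cycling transcripts of mammalian tissues, had 24.5 FPKM at 2 months against 36.9 FPKM at 6 months. The ratio was 1.503 and the change 0.57, short of the 0.58 of 1.5-fold with a pseudocount of 1. The change was 0.59 with a pseudocount of 0.1 and under both scalings, past that size. A higher change was seen for 139 of the 12652 genes.

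Tef, the thyrotroph embryonic factor gene, was the most abundant of the 3, with 50.2 FPKM at 2 months against 66.1 FPKM at 6 months. Its ratio was 1.32, its change 0.39, and 262 of the 12652 genes had a higher change. Hlf, the hepatic leukemia factor gene, had 9.26 FPKM at 2 months against 10.1 FPKM at 6 months, a change of 0.12, and 2196 genes had a higher change. The 3 related genes therefore differed in the size of their change, with Dbp at the top and Hlf at the bottom. Their summed level was 84.0 FPKM at 2 months against 113 FPKM at 6 months. Dbp made up 29.2% of this sum at 2 months and 32.6% at 6 months, Hlf 11.0% and 8.95%, and Tef held the largest share at both ages, with 59.8% and 58.5%.

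Nfil3, which encodes the repressor that competes for D-box elements, was the member with the lowest change. It had 5.04 FPKM at 2 months against 4.33 FPKM at 6 months, a ratio of 0.861 and a change of -0.18. This lay inside the range of genes of similar level, and 1643 of the 12652 genes had a lower change. The summed level of Dbp, Tef and Hlf was 16.7 times that of Nfil3 at 2 months and 26.1 times at 6 months. These are ratios of messenger RNA, which gives no level of protein, and no spread between libraries can be set beside them.

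The basic helix-loop-helix repressors both had higher values at 6 months. Bhlhe40 (DEC1), which also answers to hypoxia and to many other stimuli, had 52.8 FPKM at 2 months against 69.2 FPKM at 6 months, a ratio of 1.31 and a change of 0.39. A higher change was seen for 269 genes. Bhlhe41 (DEC2) was the lowest of the 9 genes, with 1.86 FPKM at 2 months against 3.70 FPKM at 6 months. Its ratio of 1.99 and its change of 0.72 were the highest among the 9, and 115 of the 12652 genes had a higher change. At so low a level the size depends on the pseudocount, and the change was 0.95 with a pseudocount of 0.1. Bhlhe40 stood at 28.4 times the level of Bhlhe41 at 2 months and at 18.7 times at 6 months.

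Changes were also set beside those of genes of similar level. The range from the 5th to the 95th percentile ran from -0.30 to 0.20 for the 3505 genes with a mean of 20 to 100 FPKM, and Dbp, Tef and Bhlhe40 lay above it. Bhlhe41 lay above the range of the 3341 genes with a mean of 1 to 5 FPKM. The other 5 members lay inside the range of their level, that of Hlf being -0.27 to 0.24. These ranges describe the changes of single genes between the ages and are no measure of the spread between libraries.

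**Figure D2:**
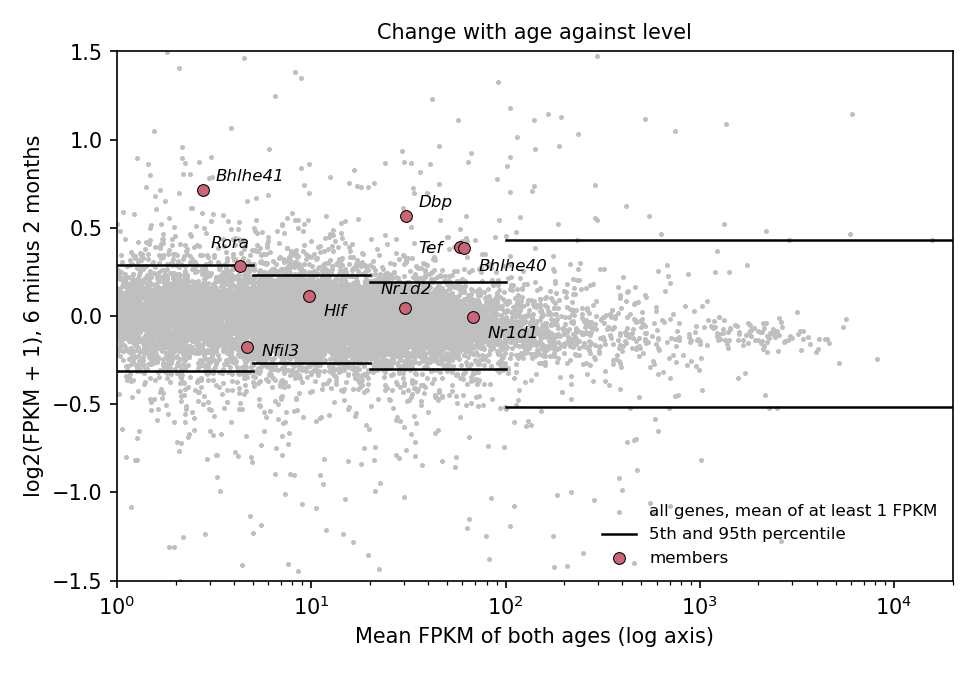
Change from 2 to 6 months on the log2(FPKM + 1) scale against the mean FPKM of both ages on a log axis, for the 12652 genes that passed the filter (grey) and the 9 members (red), with 141 genes beyond the plotted range of changes. Black lines mark the 5th and 95th percentiles in 4 ranges of level, and Dbp, Tef, Bhlhe40 and Bhlhe41 lie above the upper line.

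The core clock genes, which act on the members and are acted on by them, were taken as a list of 8. Of these, 6 had a higher value at 6 months and 2 a lower value under all scalings, 5 were higher and 2 lower by at least 1.2-fold, and the median change was 0.32. The activator gene Arntl, a target of the REV-ERB and ROR proteins, had 6.73 FPKM at 2 months against 5.03 FPKM at 6 months, a change of -0.36. Npas2, which can take the place of Clock, had 3.34 and 2.57 FPKM, a change of -0.28. Clock itself had 23.2 and 23.6 FPKM, a change of 0.02.

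The repressor genes of the core loop had higher values at 6 months. Per1 had 11.8 FPKM at 2 months against 16.8 FPKM at 6 months, Per2 had 9.44 and 14.5 FPKM, and Per3 had 13.3 and 17.8 FPKM, with changes of 0.47, 0.57 and 0.39. Cry1 had 4.75 and 6.31 FPKM, a change of 0.35. Cry2 had 10.8 and 13.6 FPKM, a change of 0.30. Dbp had a change of 0.57 and Nr1d1 a change of -0.01. Both are, like the Period genes, known to be transcribed under E-box control, and the part of this control in their values was not tested. The ratio of Dbp to Nr1d1 was 0.359 at 2 months and 0.542 at 6 months. The summed level of the Period genes was 3.44 times that of Arntl and Npas2 at 2 months and 6.45 times at 6 months. Arntl and Npas2 are the 2 core clock genes with lower values at 6 months, so this ratio follows the direction of their change. It leaves out Clock, the most abundant core clock gene, with 23.2 FPKM at 2 months against 23.6 FPKM at 6 months.

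A list of 10 genes that cycle in most mouse organs shares 3 genes with the members and 4 with the core clock list, so it is not a separate set. Its median change was 0.30, with 8 genes higher and 2 lower, of which Nr1d1 changed sign with the scaling. The genes it adds were Usp2, Tsc22d3 and Tspan4. Usp2, a deubiquitinase gene, had 4.95 FPKM at 2 months against 6.81 FPKM at 6 months, a change of 0.39. Tsc22d3, a glucocorticoid-induced gene, had 21.5 and 24.9 FPKM, a change of 0.20, and Tspan4, a tetraspanin gene, had 1.84 and 2.20 FPKM, a change of 0.17.

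Genes on which the members act were taken as lists from background knowledge, and the most abundant gene of a list is that with the highest mean of both ages. Among genes under ROR elements, 6 passed the filter, 3 were higher and 3 lower, the median change was -0.08, and the most abundant was Plin2. This list holds Nfil3 itself, as well as Arntl, Npas2, Clock and Cry1. Among genes under D-box elements, 9 passed the filter, 7 were higher and 2 lower, with 1 sign, that of Alas1, changing with the scaling. The median change was 0.18, and the 4 genes past 1.2-fold were the 3 Period genes and Rora. The most abundant gene, Por, had 181 FPKM at 2 months against 182 FPKM at 6 months. No gene of either list was past 1.5-fold on the log2(FPKM + 1) scale, but Per2, with a ratio of 1.53, was past it with a pseudocount of 0.1 and under both scalings.

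Partners, relatives and regulators of the members were taken as further lists. Of the corepressors and coactivators of REV-ERB and ROR, 5 passed the filter, 4 were higher and 1 lower, none reached 1.2-fold, and the median was 0.08. The most abundant was Hdac3, the deacetylase through which REV-ERB proteins repress, with 35.9 FPKM at 2 months against 38.1 FPKM at 6 months. Of the other clock regulators, 11 passed the filter, 7 were higher and 4 lower, with Arntl2 changing sign with the scaling. The median was 0.05 and the most abundant was Csnk1d. By at least 1.2-fold, 2 were higher and 0 lower, beside 4.34% and 6.49% of the 12652 genes. Named after their values were seen, the 2 were Ciart and Timeless, each with a change of 0.39. The C/EBP family, basic leucine zipper factors related to the PAR members, had 3 higher and 1 lower gene of 4 and a median of 0.14, and Cebpa was the most abundant. The HES and HEY family, helix-loop-helix repressors related to Bhlhe40 and Bhlhe41, had 1 higher and 3 lower genes of 4, with Hey1 and Heyl changing sign with the scaling, and a median of -0.01. Hes1, its most abundant gene, had 85.1 FPKM at 2 months against 86.7 FPKM at 6 months.

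**Figure D3:**
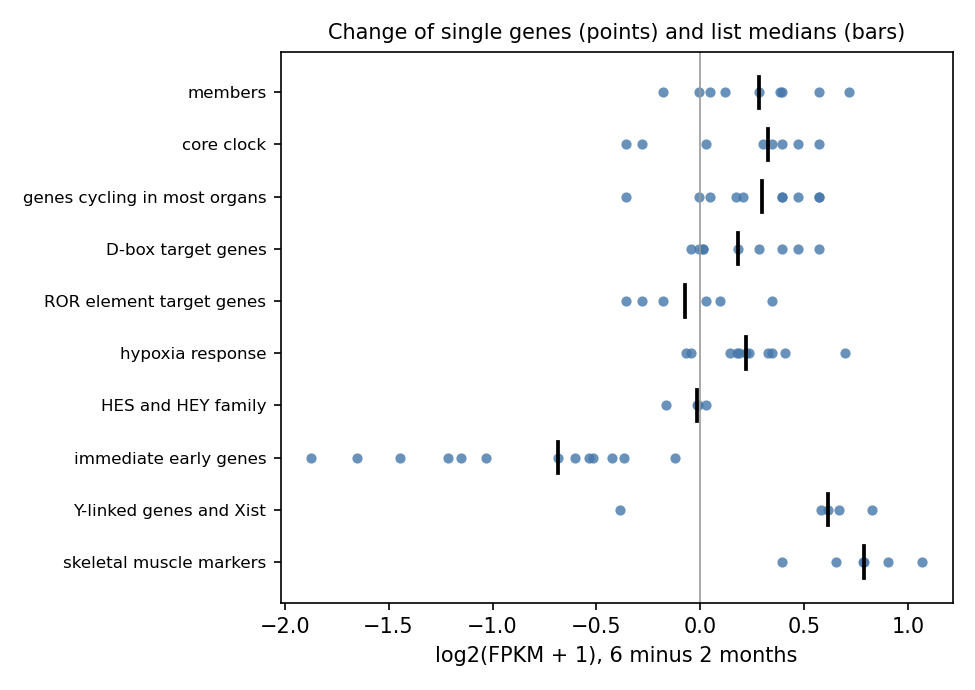
Change from 2 to 6 months on the log2(FPKM + 1) scale of single genes (points) and median of each list (bars), for genes that passed the filter. The genes cycling in most organs share genes with the members and with the core clock list, which share none with each other. The medians of the members, the core clock genes and the genes cycling in most organs are 0.28, 0.32 and 0.30, while the immediate early genes lie below 0.

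Some members also answer to signals outside the clock, and genes of these responses were measured in the same values. Of 11 hypoxia response genes, 9 were higher and 2 lower at 6 months, the median was 0.22, and the summed level of all 12 listed genes was 798 FPKM at 2 months against 922 FPKM at 6 months. Ldha was the most abundant, and Ankrd37, with 7.20 FPKM at 2 months against 12.3 FPKM at 6 months, was past 1.5-fold. The part of this response in the values of Bhlhe40 and Bhlhe41 was not tested. Glucocorticoid response genes, to which Per1 belongs, had 4 higher and 3 lower genes of 7 and a median of 0.06. Sgk1 was their most abundant gene by the mean, with Dusp1 above it at 2 months, and Dusp1 was past 1.5-fold in the direction of lower values.

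Immediate early genes, which are transcribed soon after a stimulus, were lower in 13 of 13 cases, with a median of -0.68. The summed level of all 14 listed genes was 1058 FPKM at 2 months against 572 FPKM at 6 months, and Junb was the most abundant. Of the 8 past 1.5-fold, Fos had a change of -1.87, Fosb -1.44, Atf3 -1.22, Jun -1.15, Zfp36 -1.03, Dusp1 -0.68 and Ier3 -0.60. Under either scaling 7 were past it, without Ier3. Among the members 7 of 9 had higher values, and the part of these genes in the members' values was not tested.

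The cell types held by the samples were checked by markers, since in bulk RNA fewer cells of a type and less RNA per cell cannot be told apart. The defining genes of taste cells were present at both ages. Of the 6 type II markers 3 were higher and 3 lower, with a median of 0.01 and Gnat3 as the most abundant at 84.7 FPKM at 2 months against 79.9 FPKM at 6 months. Of the 7 type III markers 5 were higher and 2 lower, with Chga changing sign with the scaling, a median of 0.16 and Pkd2l1 as the most abundant. The markers past 1.2-fold, named after their values were seen, were Tas1r3 of type II, with 10.3 and 14.6 FPKM and a change of 0.47, and Gad1 of type III, with 1.41 and 2.04 FPKM and a change of 0.34. With a pseudocount of 0.1 or either scaling, Itpr3 of type II and Ddc of type III were higher by this size as well, and with that pseudocount Ncam1 of type III was lower by it. Of the 2 type I markers, Entpd2 had 66.1 and 57.7 FPKM, a change of -0.19, while Slc1a3, which did not pass the filter, had 0.710 and 0.988 FPKM, a change of 0.22. Of 5 markers of basal and progenitor epithelium 2 were higher and 3 lower, with a median of -0.14 and Krt5 as the most abundant. Krt14, named after its value was seen, had 1287 and 1533 FPKM, a change of 0.25. It was higher by at least 1.2-fold under both scalings.

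Markers of other tissue moved between the ages as well. Skeletal muscle markers were higher at 6 months in 6 of 6 cases that passed the filter, with a median of 0.78, and their sum over 7 genes was 13.4 FPKM at 2 months against 26.6 FPKM at 6 months. Mylpf was the most abundant by the mean, with Tnnc2 above it at 6 months, and Tnnc2, Mb, Acta1, Tnnt3 and Ckm were past 1.5-fold, with changes of 1.07, 0.90, 0.79, 0.78 and 0.65. Each of these genes lay between 1 and 6 FPKM, the range of level of Bhlhe41 and Rora. Their part in the values of the members was not tested.

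Markers of keratinised epithelium and lingual gland had lower values at 6 months. Of the keratinised markers, 5 of 5 were lower, but Krt4, their most abundant gene, was listed at 0 at 6 months and Krt13 at 0 at both ages, which can be a failed estimate. Without these genes the median of the other 4 was -0.70, Lor, Krt10, Ivl and Krt1 were the genes measured, and their sum was 1515 FPKM at 2 months against 852 FPKM at 6 months. Gland markers were lower in 5 of 5 cases, with a median of -0.58, a sum of 149 FPKM at 2 months against 53.9 FPKM at 6 months, Lipf as the most abundant by the mean, with Muc5b above it at 6 months, and changes of -2.43 for Lipf and -1.36 for Bpifb1. The part of these tissues in the values of the members was not tested.

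Markers of further cell types were measured as well. Fibroblast markers summed to 43.6 FPKM at 2 months against 28.7 FPKM at 6 months, nearly all of it Dcn with a change of -0.60, while Col1a1, Col1a2 and Col3a1 were near 0 at both ages. Of the endothelial markers only Tek passed the filter, with a change of -0.01. Leukocyte markers had 2 higher and 2 lower genes of 4 and a median of -0.09, with Lyz2 as the most abundant. Schwann cell and neuron markers were lower in 3 of 3 cases, with a median of -0.53 and Tubb3 as the most abundant. Of the adipocyte markers only Fabp4 passed the filter, with 0.692 FPKM at 2 months against 3.48 FPKM at 6 months, while Adipoq was near 0 and Plin1 was listed at 0 at 2 months.

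Genes of the sex chromosomes differed between the pools. The Y-linked genes Eif2s3y, Ddx3y, Uty and Kdm5d were higher at 6 months, with changes of 0.83, 0.67, 0.61 and 0.58, and Xist, which is transcribed in female cells and was the most abundant of the 5, had 42.6 FPKM at 2 months against 32.3 FPKM at 6 months. The median of the 5 was 0.61. Their part in the values of the members was not tested.

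The members lie on 7 chromosomes of GRCm38. Nr1d1 (chr11:98767932-98775377) and Hlf (chr11:90336535-90390917) are on the same chromosome, as are Bhlhe40 (chr6:108660629-108666925) and Bhlhe41 (chr6:145858243-145865420). Nr1d2 lies at chr14:18204056-18239106, Dbp at chr7:45705100-45710203, Tef at chr15:81802673-81826863, Nfil3 at chr13:52967209-52982878 and Rora, by far the longest, at chr9:68653404-69388246. Positions are those of RefSeq.

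The exons of 6 members overlap those of a gene on the opposite strand in GENCODE annotation, and the reads were mapped with default settings, which do not use strand, so reads from the overlap cannot be told apart. Dbp shares 539 bases, or 18.0% of its exon bases, with Sphk2, which had 32.8 FPKM at 2 months against 34.8 FPKM at 6 months, a change of 0.08. Nr1d1 shares 263 bases, or 8.55%, with Thra, which had 13.7 and 14.5 FPKM, a change of 0.08. Bhlhe41 shares 1280 bases, or 19.0%, with Gm43909, Tef 193 bases with Gm17597 and Rora 82 bases with Gm15511, and no value of these 3 genes was used here. Bhlhe40 shares 118 bases with 0610040F04Rik, which had 0.187 FPKM at 2 months against 0.101 FPKM at 6 months.

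The 250 bases before the start sites of the members were searched on both strands for motifs of the clock. These were the E-box CACGTG, found in 6.02% of the 32851 windows of this length, its variant CACGTT in 3.85%, the D-box TTATGTAA in 0.819% and TTACGTAA in 0.113%, the ROR half-site AGGTCA in 14.0% and the cyclic AMP response element TGACGTCA in 1.55%. A match is a description of the letters and is not shown to be a bound site. RefSeq (GRCm38.p6) gave windows for 8 of the 9 members, all but Bhlhe40, with 2 for Tef and 1 for each of the others. The E-box was found in both windows of Tef and in that of Bhlhe41, 127, 138 and 153 bases before the start. Nr1d1 held the variant 28 bases before its start, read on the other strand. Nr1d2 and Nfil3 held the ROR half-site, 77 and 12 bases before the start and on the other strand in Nfil3, and Hlf held the cyclic AMP response element 9 bases before its start. The windows of Dbp and Rora held none of these letters.

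The matches are shown with 30 bases each, in the direction of the gene and with the motif in capitals, so that they can be compared. In GENCODE annotation the stretches of Nr1d1, Nr1d2 and Hlf lie outside genes, while the last 10 bases of that of Hlf lie inside the gene as RefSeq places it. Those of Bhlhe41 and Nfil3 lie at least in part in exons and untranslated sequence of their own longer transcripts, and so does the first of Tef, while the second lies in an intron of Tef.
Tef, chr15:81802534-81802563, plus strand: gtgctgtggctcCACGTGctgcagctggca
Tef, chr15:81811264-81811293, plus strand: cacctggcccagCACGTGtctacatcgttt
Bhlhe41, chr6:145865556-145865585, minus strand: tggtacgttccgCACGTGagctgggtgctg
Nr1d1, chr11:98775388-98775417, minus strand: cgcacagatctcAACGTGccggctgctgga
Nr1d2, chr14:18239166-18239195, minus strand: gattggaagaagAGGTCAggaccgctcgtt
Nfil3, chr13:52981034-52981063, minus strand: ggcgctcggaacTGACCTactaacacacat
Hlf, chr11:90390908-90390937, minus strand: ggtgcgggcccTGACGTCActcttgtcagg

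The D-box, the element that Dbp, Tef, Hlf and Nfil3 bind, was found in none of the members' windows. Among the core clock genes, of which all but Per2 had a window, it was found in Per3, 205 and 158 bases before its start and in an intron of the neighbouring gene Camta1. These stretches are shown because the element is the one that the PAR factors and Nfil3 share.
Per3, chr4:151044852-151044881, minus strand: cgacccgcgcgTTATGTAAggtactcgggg
Per3, chr4:151044805-151044834, minus strand: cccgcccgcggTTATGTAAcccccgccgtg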

How the data were processed

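RNA of 6 pooled CV/Fol taste cell libraries, grouped by the age in the labels, was sequenced by the authors. According to the study's methods and the submitters' processing notes, reads were mapped to GRCm38/mm10 with TopHat2 2.0.7, and RefSeq genes were quantified with Cufflinks 2.1.1 and Cuffdiff. The table used here, deposited by the authors, holds 1 FPKM value per gene and age, combined over 3 libraries, and gives neither depth nor spread. Its column with p-values of the authors' own comparison was not used, nor was a Cuffdiff comparison table that the design text names. Differences of log2(FPKM + 1) and counts past 1.2-fold and 1.5-fold were computed over genes with an average of 1 FPKM or more, of which 79 were listed at 0 at one age. No statistical test between the ages was run. The script that counts genes past a fold was checked on simulated data. Alternatives were a pseudocount of 0.1, equal upper quartiles or medians for both ages, no filter and an average of 5 FPKM or more.

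All members and every gene of the core clock and cycling lists were named with both values, and from the other lists the most abundant gene and those past 1.5-fold. Of the listed genes, 1 immediate early gene is counted but not named, and 1 clock regulator was taken out of its list and is not reported here. Members and lists were chosen with earlier results of these data known. Flg was not analysed here. Python 3.11.15, numpy 2.4.6, pandas 2.3.3 and matplotlib 3.10.9 were used.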

Additional observations from a re-analysis of the deposited data

How the results depend on the processing

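The values are 1 per age and set no difference against the spread between libraries. The depth that would limit the low genes Bhlhe41, Rora and Nfil3 is unknown from them. The p-values of the authors' own comparison were not used. Leaving out each replicate in turn was not run, because single libraries had no values in the data used. No paired analysis was possible because the values carry no replicate numbers and come from no test. The count of members higher by at least 1.2-fold was 5 with a pseudocount of 0.1, with either scaling and without a filter. It was 1 at 1.5-fold, and 3 under the filter of 5 FPKM, where fewer members were counted. The count at 1.5-fold, tried under the other settings after seeing the data, was 2 with a pseudocount of 0.1 and with either scaling, where Dbp joined Bhlhe41, and 0 under the filter of 5 FPKM, which Bhlhe41 did not pass. The count of lower members was 0 in each of these settings. Shares of all expressed genes are given for the main pseudocount, scaling and filter only, so nothing is read from the counts in other settings. The median change of the members was 0.34 with a pseudocount of 0.1, 0.30 with the same upper quartile, 0.30 with the same median and 0.25 under the filter of 5 FPKM. The median of the core clock genes was 0.36, 0.34, 0.34 and 0.35 in these settings, and that of the genes cycling in most organs 0.33, 0.32, 0.32 and 0.39. Among single members, the sign was kept by 9 of 9 with a pseudocount of 0.1 and by 8 of 9 with each scaling, the exception being Nr1d1. Leaving out genes listed at 0 at one age, chosen after seeing the data, gave 4.12% higher and 6.15% lower genes.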
